A study of Mus musculus with 8 samples.

Results

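The nuclear receptors of the liver are described here as a list of 35 genes that was chosen by name, with earlier results of these data known. It holds the liver's receptors for bile acids, fatty acids, sterols, xenobiotics, retinoids, thyroid hormone, vitamin D and steroids, together with the orphan members of the family, and it leaves out the receptors of the circadian clock. All 35 symbols were found among the 23282 rows of the count tables. Of these, 33 stood on rows that follow the order of the genome, and 30 of the 33 had enough counts to be tested. The other two, *Nr1h4* and *Pparg*, stood on rows whose neighbours are not their neighbours in the genome, and they are described separately.

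Liver RNA of C57BL/6 mice was sequenced in 3 groups. The control group (named Normal in the labels) received saline. The endotoxemic group received 25 mg/kg of lipopolysaccharide (LPS), the bacterial endotoxin, by intraperitoneal injection. Its sample titles name LPS and the dose, and the treatment protocol in the labels names it Control. The LGK974 group is labelled with that agent alone, an inhibitor of the enzyme PORCN that blocks the secretion of Wnt proteins. The paper's text describes LGK974 at 60 mg/kg in mice that also received LPS, given 2 h before LPS in most experiments, and collection of the livers 6 h after LPS. The labels describe the mice as males of 4 weeks, and the number of mice behind a library is not given in the sources used here. There were 8 libraries, but endotoxemic libraries 3 and 4 were identical to libraries 1 and 2 on all 23282 rows, and each pair was counted once, which left 2 libraries per group. Nothing in the labels says whether the 2 libraries of a group came from separate mice, so the p-values measure only the spread between these libraries. The depth was 11046257 and 15222439 counts for controls, 9142116 and 9158958 for endotoxemic libraries, and 13573778 and 14575204 for LGK974 libraries.

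The transcripts that differ between the sexes divided the libraries along the treatment. *Xist*, the noncoding RNA of the inactive X chromosome, had 1444 and 3115 counts across the control libraries, 1171 and 1884 across the endotoxemic libraries, and 3 and 7 across the LGK974 libraries. Conversely, the Y-linked gene *Ddx3y* had 0 counts in each control and endotoxemic library and 1755 and 1392 across the LGK974 libraries. The other 3 Y-linked genes examined followed *Ddx3y*, with 1 count of *Uty* in control library 2 as the exception. The control and endotoxemic libraries thus carried *Xist* with at most 1 Y-linked count, and the LGK974 libraries carried Y-linked transcripts with few *Xist* counts, although the labels describe all mice as males. In each comparison with the LGK974 group below, the treatment and this difference cannot be told apart. Between the endotoxemic and control libraries there is no such difference.

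Nuclear receptors are transcription factors that read small lipophilic molecules. Those for bile acids, fatty acids, oxysterols, xenobiotics, retinoic acid, thyroid hormone and vitamin D bind DNA as heterodimers with a retinoid X receptor (RXR), often at pairs of the base sequence AGGTCA. Others bind as homodimers or monomers, and ligands shift many of them from corepressors to coactivators. In the hepatocyte they set the rates of bile acid synthesis, fatty acid oxidation, cholesterol export and drug metabolism, and the acute-phase response to LPS is known to lower several of them.

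The 250 bases before the annotated start of 4 receptors that respond to bile acids or xenobiotics are shown because all 4 belong to 1 regulatory circuit of the hepatocyte and are described first below. The sequences are from RefSeq, build GRCm38, written 5′ to 3′ along the strand of the gene, with the matches to the searched motifs in capitals. For *Nr1h4* the RefSeq start lies inside the gene as GENCODE annotates it.
*Nr0b2* (chr4:133553126-133553375, plus strand): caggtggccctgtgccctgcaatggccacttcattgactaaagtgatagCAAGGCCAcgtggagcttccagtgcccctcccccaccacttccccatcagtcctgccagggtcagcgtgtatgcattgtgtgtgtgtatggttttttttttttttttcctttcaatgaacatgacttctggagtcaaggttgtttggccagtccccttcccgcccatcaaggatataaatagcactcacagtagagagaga
*Nr1h4* (chr10:89506659-89506908, minus strand): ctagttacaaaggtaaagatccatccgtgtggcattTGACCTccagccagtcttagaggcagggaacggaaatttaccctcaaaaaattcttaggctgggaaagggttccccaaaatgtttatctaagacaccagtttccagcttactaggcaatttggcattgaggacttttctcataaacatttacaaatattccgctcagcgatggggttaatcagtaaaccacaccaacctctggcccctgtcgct
*Nr1i2* (chr16:38294825-38295074, minus strand): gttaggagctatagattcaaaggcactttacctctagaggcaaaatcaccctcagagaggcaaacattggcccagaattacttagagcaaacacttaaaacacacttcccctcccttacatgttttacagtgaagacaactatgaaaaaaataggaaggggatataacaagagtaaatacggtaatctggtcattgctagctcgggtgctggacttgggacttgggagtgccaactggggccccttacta
*Nr1i3* (chr1:171213720-171213969, plus strand): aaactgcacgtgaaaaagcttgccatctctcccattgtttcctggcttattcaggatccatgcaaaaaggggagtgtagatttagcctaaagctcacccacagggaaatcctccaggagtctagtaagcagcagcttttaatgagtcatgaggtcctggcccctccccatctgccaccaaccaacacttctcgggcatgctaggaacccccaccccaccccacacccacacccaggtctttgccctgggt

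A promoter was found for 32 of the 35 receptors, among 27025 promoters in all. Both strands of the 250 bases were searched for 5 motifs, of which the direct repeat of AGGTCA with 1 base of any kind between its copies contains AGGTCA. The NR5A-type motif CAAGGNCA was found before *Nr0b2*, 201 to 194 bases before its start, and in 5.49% of all promoters. AGGTCA was found before 5 of the 32 receptors (*Nr1h4*, *Nr5a2*, *Pparg*, *Rarg* and *Thrb*), which is 15.6% of them, and in 13.8% of all promoters. Before *Nr1h4* it lay on the opposite strand, 214 to 209 bases before the start. That direct repeat, the HNF4-type element CAAAGTCCA and an NF-κB consensus element of 10 bases were found before 0 of the 32 receptors, and in 0.037%, 0.381% and 0.13% of all promoters. None of these letters was found in the windows of *Nr1i2* and *Nr1i3*.

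The first comparison asked which receptor transcripts differed between the livers of endotoxemic and saline-injected mice. In the endotoxemic group, 18 of the 30 tested receptors were lower and 0 were higher, which is 60% lower, whereas 42.1% of all 12293 tested genes were called, 22.6% lower and 19.5% higher (edgeR's quasi-likelihood F test, Benjamini-Hochberg adjusted p under 0.05). The median log2 fold change was −1.39 over the receptors and 0.01 over all tested genes. At an unadjusted p under 0.05, 1 receptor was higher (*Vdr*), beside 23.8% of all tested genes. DESeq2 also called *Vdr* higher, beside 10.3% of the 22754 rows given to it. Only 16787 of those rows had a count in any library, so this is not a share of tested genes. The summed level of the 33 receptors on ordered rows was 1639 and 1701 CPM (counts scaled to library size and normalized by the TMM method) across the control libraries and 708 and 706.1 across the endotoxemic libraries. The lower calls numbered 13 without control library 1, 14 without control library 2, 10 without endotoxemic library 1 and 13 without endotoxemic library 2, when 13.8%, 14.8%, 13.2% and 13.4% of all tested genes were lower. Of the 18 receptors 10 kept their call whichever of the 6 libraries was left out. These 10 were *Nr0b2*, *Nr1i2*, *Nr1i3*, *Nr2f2*, *Nr2f6*, *Ppara*, *Rxra*, *Rxrg*, *Thra* and *Thrb*. With only the 2 groups compared, 19 receptors were lower and 1 was higher, beside 27.7% and 26% of all tested genes.

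**Figure D1:**
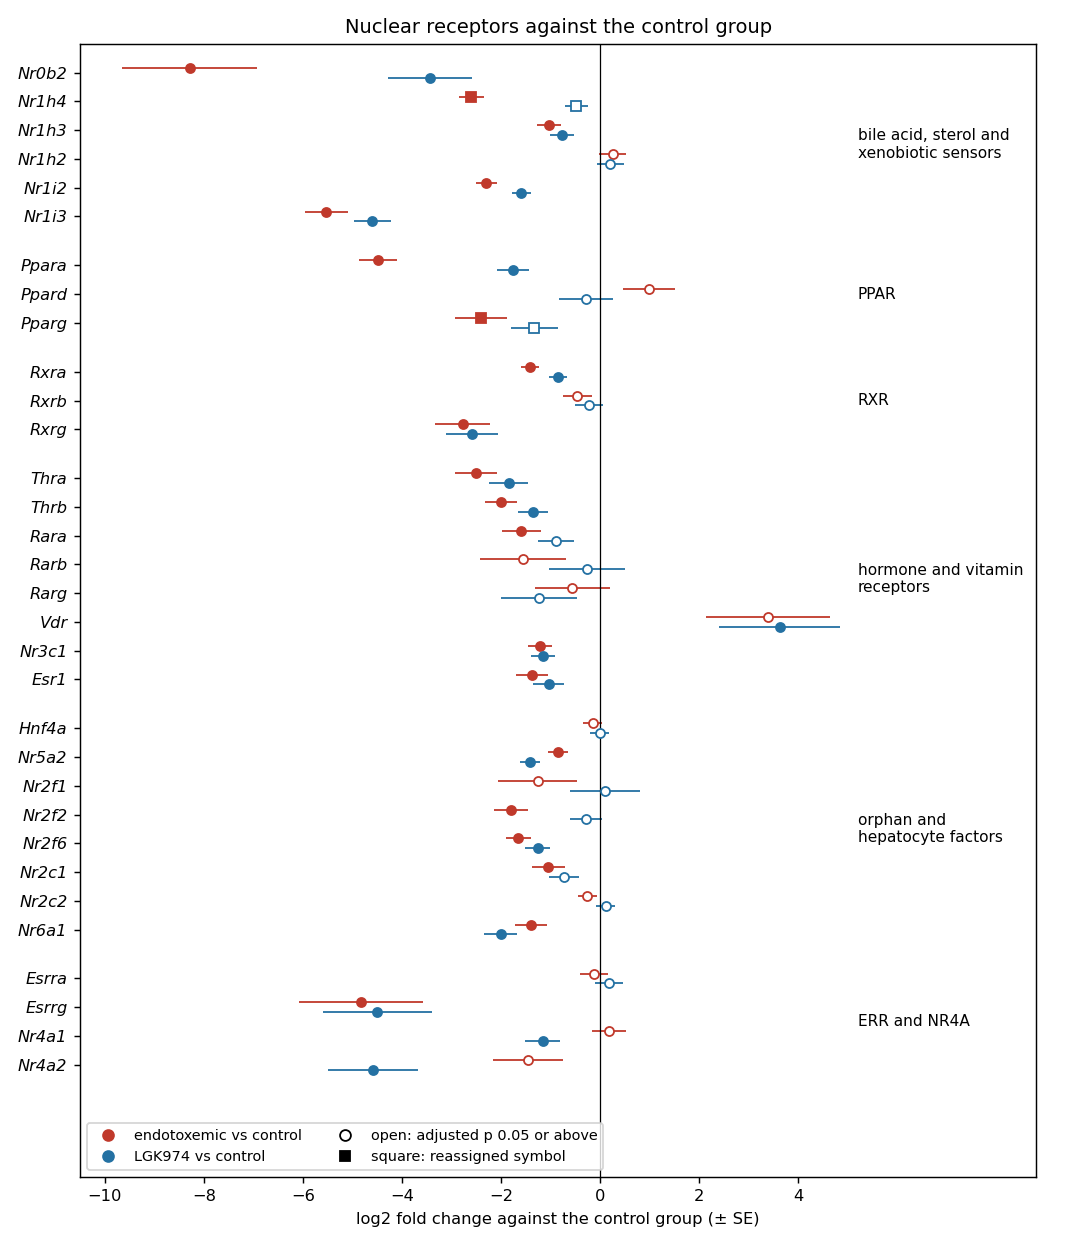
Log2 fold change against the control group (x axis, ± SE) of the 30 tested receptors and of *Nr1h4* and *Pparg* with reassigned symbols, by class, for the endotoxemic group (red) and the LGK974 group (blue). Filled points have an adjusted p under 0.05, and squares mark reassigned symbols. In the endotoxemic group 18 tested receptors sit left of 0 with a filled point, and *Hnf4a*, *Esrra* and *Nr1h2* stay near 0.

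Among the receptors for bile acids and xenobiotics, *Nr0b2*, *Nr1i3* and *Nr1i2* were all far lower in the endotoxemic group. *Nr0b2* encodes SHP, a receptor without a DNA-binding domain that represses bile acid synthesis (ENSMUSG00000037583, chr4:133553376-133556536, plus strand, GENCODE on GRCm38). It had 366 and 611 counts across the control libraries and 0 and 2 counts across the endotoxemic libraries. The ratio of the summed counts was 346.1-fold lower with an exact 95% counting interval of 95.55 to 2862 (adjusted p = 0.0013). Since 1 endotoxemic library held both counts, the size of this fall rests on which library is used, and the call was kept without any single library (adjusted p up to 0.0167). *Nr1i3* encodes the constitutive androstane receptor CAR, which induces drug-metabolizing enzymes (ENSMUSG00000005677, chr1:171213970-171220701, plus strand). It fell from 46.6 and 54.3 CPM to 1.203 and 0.961 CPM, a log2 fold change of −5.53 ± 0.43 (SE, adjusted p = 2.46e-05). The exons of *Nr1i3* overlap those of *Tomm40l* on the other strand, which had 904 and 1356 counts across the control libraries and 49 and 39 across the endotoxemic libraries, and since the strand used in counting is not given in the sources used here, reads of the 2 genes cannot be told apart where they overlap. *Nr1i2* encodes the pregnane X receptor PXR, a sensor of drugs and bile acids (ENSMUSG00000022809, chr16:38248323-38294824, minus strand). Its level was 60.8 and 59.1 CPM in the control group and 12.0 and 12.3 CPM in the endotoxemic group, a fall of 2.30 ± 0.21 on the log2 scale (adjusted p = 4.6e-05). The control and endotoxemic libraries did not overlap for any of these 3 genes, as for 76.5% of all tested genes and 25 of the 30 tested receptors.

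*Nr1h4* encodes the bile acid receptor FXR (ENSMUSG00000047638, chr10:89454234-89533585, minus strand). Its row stood between *Shcbp1l* and *Npl* on chromosome 1, which is the place of *Dhx9*, and the row at its own place on chromosome 10 carried the symbol *Hdac5*. In the tables, 528 rows were out of order in this way, and 432 of them could be matched to the gene at their place. Across these 432 rows the control counts correlated with the endotoxemic counts at a Spearman rho of 0.045 with the symbols as deposited and 0.806 when each row's endotoxemic counts were assigned to the gene annotated there. For the LGK974 counts the values were 0.052 and 0.849. Both values run over genes, not over independent samples. Under the deposited symbol *Nr1h4* had 655 and 1016 counts across the control libraries, 505 and 331 across the endotoxemic libraries and 581 and 454 across the LGK974 libraries. The row at its genomic place had 91 and 104 counts across the endotoxemic libraries and 490 and 805 across the LGK974 libraries. With the symbols reassigned, *Nr1h4* was 6.06-fold below the controls after LPS (log2 −2.60 ± 0.25, adjusted p = 6.3e-05), where 42.7% of the 12596 tested genes were called, 22.7% lower and 20% higher. As deposited, the difference was −0.49 and was not called (adjusted p = 0.16).

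*Pparg*, the adipogenic PPAR that the liver holds at low levels, was the other receptor out of order (ENSMUSG00000000440, chr6:115360951-115490399, plus strand). Its row stood on chromosome 1, at the place of *Selp*, and the row at its own place on chromosome 6 carried the symbol *Gja1*. Under the deposited symbol it had 140 and 145 counts among controls, 242 and 372 under LPS and 262 and 490 with LGK974. The row at its place had 29 and 10 counts across the endotoxemic libraries and 74 and 50 across the LGK974 libraries. The direction of *Pparg* therefore turned with the symbols. It was lower by 2.41 ± 0.52 on the log2 scale with reassigned symbols (adjusted p = 0.0052) and higher by 1.56 as deposited (adjusted p = 0.0047). With reassigned symbols the log2 fold change was −3.33 without endotoxemic library 1 and −1.82 without endotoxemic library 2.

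**Figure D2:**
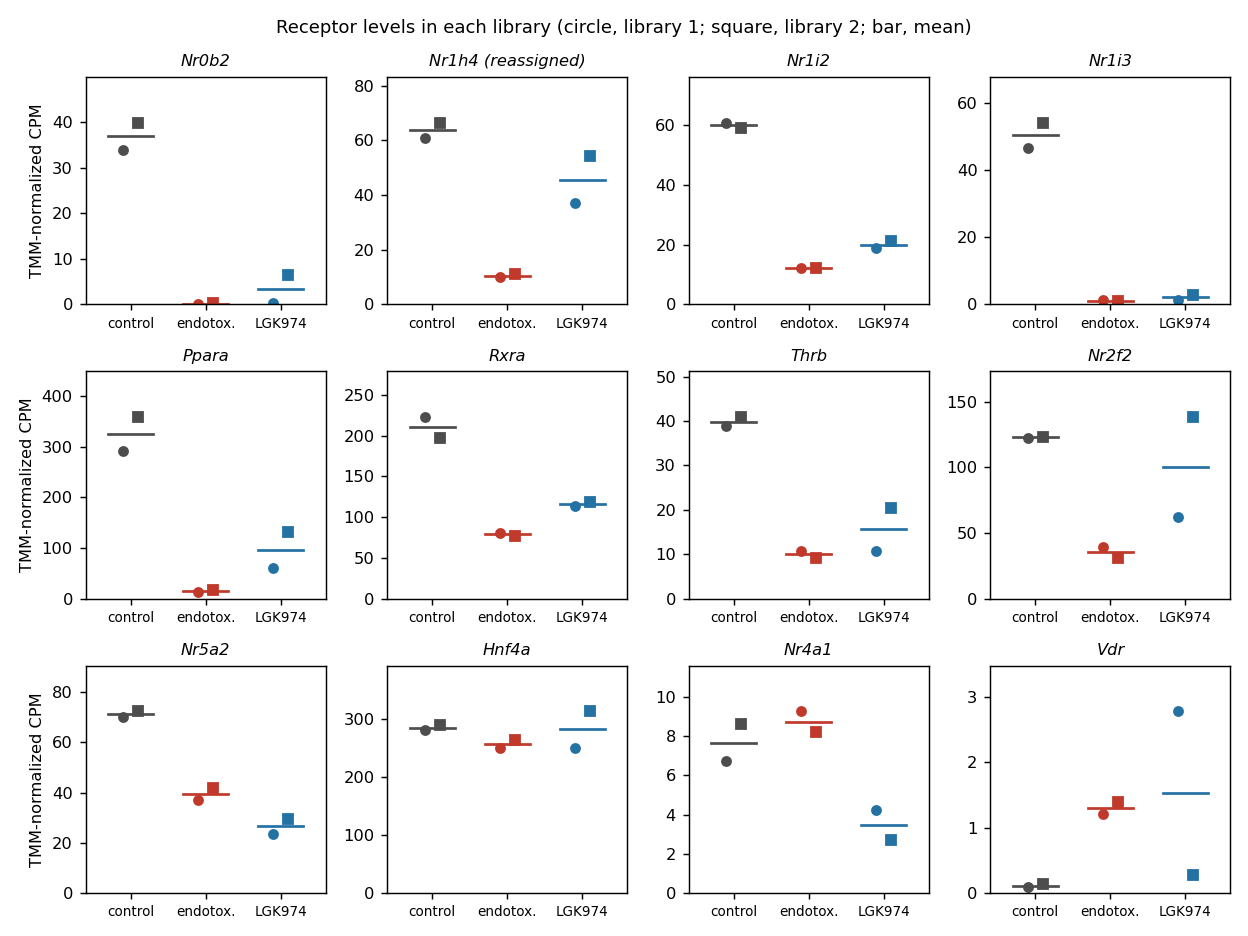
Level of 12 receptors in each distinct library (y axis, TMM-normalized CPM from 0) by group (x axis), with circles for library 1, squares for library 2 and bars for the mean. *Nr1i3*, *Ppara* and *Nr0b2* lie close to 0 in both endotoxemic libraries, *Hnf4a* lies at a similar level in all 3 groups, and the LGK974 libraries differ from each other for *Ppara*, *Nr2f2* and *Vdr*.

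The receptors for fatty acids and sterols differed among themselves. *Ppara* encodes PPARα, the fatty acid sensor that drives oxidation and ketogenesis in fasting (ENSMUSG00000022383, chr15:85734983-85802819, plus strand). It was at 292.5 and 359.4 CPM across the control libraries and 12.9 and 16.0 CPM across the endotoxemic libraries, and the difference of −4.49 ± 0.38 on the log2 scale equals a 22.5-fold lower level (adjusted p = 3.6e-05). *Ppard*, the PPAR found in most tissues, had 14 and 46 counts across the control libraries and 37 and 43 across the endotoxemic libraries and was not called (log2 0.98 ± 0.53, adjusted p = 0.16), with a log2 fold change from 0.52 to 1.73 when a library was left out. *Nr1h3* encodes LXRα, the oxysterol receptor that is enriched in liver. It was at 118.4 and 103.2 CPM against 54.4 and 53.2 CPM, 2.06-fold lower (log2 −1.04 ± 0.24, adjusted p = 0.0078). The call was lost without control library 1 or either endotoxemic library, with adjusted p up to 0.0648. Its widely expressed paralog *Nr1h2* (LXRβ) was at 16.3 and 23.7 CPM in the control group and 20.0 and 27.8 CPM in the endotoxemic group, which overlap.

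Of the RXR partners, *Rxra* and *Rxrg* were called lower and *Rxrb* was not called, and the differences between these genes were not tested. *Rxra*, the main RXR of the hepatocyte (ENSMUSG00000015846, chr2:27676440-27762957, plus strand), was at 223.3 and 197.6 CPM in the control group and 80.8 and 77.4 CPM in the endotoxemic group (log2 −1.41 ± 0.18, adjusted p = 3.4e-04). *Rxrg* was at 10 and 8.74 CPM against 2.08 and 0.641 CPM (log2 −2.78 ± 0.55, adjusted p = 0.0035), and the log2 fold change was −3.81 without endotoxemic library 1 and −2.16 without endotoxemic library 2. For *Rxrb* the levels of 23.4 and 15.6 CPM and of 16.2 and 12.1 CPM overlapped, and it was not called (log2 −0.46 ± 0.29, adjusted p = 0.23).

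Both thyroid hormone receptors and 1 retinoic acid receptor were lower. *Thrb*, the main thyroid hormone receptor of the liver, fell from 38.8 and 41.0 CPM to 10.7 and 9.18 CPM (log2 −2.00 ± 0.32, adjusted p = 0.0010). *Thra* had 84 and 155 counts across the control libraries and 16 and 13 across the endotoxemic libraries (log2 −2.51 ± 0.42, adjusted p = 0.0013). Its last exons overlap the clock gene *Nr1d1* on the other strand, whose counts were 613 and 843 against 22 and 39, and the part of such reads in the *Thra* counts was not tested. *Rara* was at 10.3 and 11.6 CPM against 3.72 and 3.52 CPM (log2 −1.59 ± 0.39, adjusted p = 0.010), a call that was lost without control library 2 or either endotoxemic library (adjusted p up to 0.0698). *Rarb*, with 28 and 39 against 8 and 8 counts, and *Rarg*, with 45 and 49 against 31 and 15 counts, were not called (adjusted p = 0.17 and 0.59). Exons of *Rarb* overlap *Top2b* on the other strand, which had 773 and 1229 against 527 and 597 counts. The part of such reads in the *Rarb* counts was not tested. *Rarb* was called lower with only the 2 groups compared (adjusted p = 0.0434) and without LGK974 library 1 (0.0413).

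*Vdr*, the vitamin D receptor, was the receptor with the largest positive difference. It had 1 and 2 counts across the control libraries and 11 and 13 across the endotoxemic libraries, a ratio of summed counts of 11.3 with an exact 95% counting interval of 3.43 to 58.6. The adjusted p was 0.055 in the model of all 3 groups, 0.037 with DESeq2 and 0.0068 with only the 2 groups compared.

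Both steroid receptors that could be tested were lower as well. *Nr3c1*, the glucocorticoid receptor, was at 63.2 and 83.8 CPM in the control group and 26.0 and 37.6 CPM in the endotoxemic group (log2 −1.21 ± 0.24, adjusted p = 0.0039). *Esr1*, the estrogen receptor α, was at 25.7 and 25.8 CPM against 8.86 and 10.9 CPM (log2 −1.38 ± 0.32, adjusted p = 0.0073). Without endotoxemic library 1 both calls were lost, at adjusted p = 0.0588 and 0.0718. *Nr3c2*, the mineralocorticoid receptor, had 4 and 5 counts among controls and 0 in either endotoxemic library, which is too few for a test and allows a level of up to 0.328 CPM in the shallower of them.

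Of the receptors that define hepatocytes, *Hnf4a* was at a similar level in both groups. *Hnf4a* encodes HNF4α, which binds the promoters of many liver genes (ENSMUSG00000017950, chr2:163506808-163572910, plus strand). It was at 280.3 and 289.9 CPM in the control group and 249.4 and 264.4 CPM in the endotoxemic group (log2 −0.15 ± 0.19, adjusted p = 0.55), and its values without any single library ran from −0.19 to −0.07. Its paralog *Hnf4g* had 10 and 0 counts against 6 and 2 and was not tested. *Nr5a2* encodes LRH-1, an activator of *Nr0b2* and of bile acid synthesis. It was at 70.2 and 72.5 CPM against 37.0 and 42.0 CPM (log2 −0.85 ± 0.20, adjusted p = 0.0084), and the call was lost without either control library or endotoxemic library 1 (adjusted p = 0.0517 to 0.101).

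Some orphan receptors of the COUP-TF and testicular receptor types were called lower and others were not called. *Nr2f2* encodes COUP-TFII (ENSMUSG00000030551, chr7:70351944-70366735, minus strand). It was at 122.0 and 123.3 CPM across the control libraries and 39.5 and 31.1 CPM across the endotoxemic libraries (log2 −1.80 ± 0.34, adjusted p = 0.0028). *Nr2f6* (EAR2) was at 71.7 and 67.8 CPM against 22.3 and 22.2 CPM (log2 −1.65 ± 0.26, adjusted p = 9.5e-04). *Ocel1*, which overlaps *Nr2f6* on the other strand, was lower as well (log2 −1.07, adjusted p = 0.033). *Nr2f1*, with 20 and 24 against 11 and 2 counts, was not called (adjusted p = 0.23).

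*Nr6a1* (germ cell nuclear factor) was at 10.3 and 10.2 CPM against 3.94 and 3.84 CPM (log2 −1.40 ± 0.33, adjusted p = 0.0084), and *Nr2c1* (TR2) at 8.43 and 9.65 CPM against 4.92 and 3.84 CPM (log2 −1.05 ± 0.33, adjusted p = 0.029). Both calls depended on single libraries. That of *Nr6a1* was lost without control library 1 or either endotoxemic library (adjusted p = 0.0511 to 0.0637). The call of *Nr2c1* was lost without any of the 4 libraries of these groups (adjusted p = 0.0804 to 0.175) and with DESeq2 (adjusted p = 0.062). *Nr2c2* (TR4) was at 32.3 and 31.6 CPM against 25.9 and 27.5 CPM and was not called (adjusted p = 0.31). *Mrps25*, which overlaps its exons on the other strand, had 458 and 694 counts across the control libraries and 356 and 385 across the endotoxemic libraries. The part of such reads in the *Nr2c2* counts was not tested.

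Among the estrogen-related receptors, *Esrra*, a partner of PGC-1 coactivators in mitochondrial gene expression, overlapped between the groups, at 52.0 and 38.2 CPM against 52.7 and 30.3 CPM. Its exons overlap those of *Trmt112* on the other strand, which had 696 and 705 against 663 and 402 counts. The part of such reads in the *Esrra* counts was not tested. *Esrrg* had 18 and 30 counts across the control libraries and 0 and 1 across the endotoxemic libraries, a ratio of summed counts of 34 with an exact 95% counting interval of 5.82 to 1371 (adjusted p = 0.013). Its call was lost without any of these 4 libraries (adjusted p = 0.0587 to 0.122), and with so few counts the size of its difference rests on single libraries. Of the NR4A receptors, which are immediate-early genes, *Nr4a1* was at 6.76 and 8.61 CPM against 9.30 and 8.22 CPM, and neither it nor *Nr4a2*, with 15 and 38 against 7 and 6 counts, was called (adjusted p = 0.69 and 0.13). *Nr4a3* had 0 and 9 counts against 3 and 1 and was not tested.

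The second comparison asked how the LGK974 group differed from the endotoxemic group. In the LGK974 group 2 of the 30 tested receptors were higher, *Ppara* and *Nr2f2*, and 0 were lower, beside 5.58% called, 2.84% higher and 2.74% lower, among all 12293 tested genes. At an unadjusted p under 0.05, 5 receptors were higher and 4 were lower, beside 12% and 10.9% of all tested genes. DESeq2 called 2 receptors higher and 1 lower (*Nr4a1*), beside 2.33% and 2.28% of the 22754 rows given to it, which include rows without counts. The median log2 fold change was 0.32 over the receptors and 0.03 over all tested genes. With endotoxemic library 1 or 2 left out 0 receptors were called, and 25 and 28 of all genes were then called higher. Without control library 1 or 2, 1 receptor was called, and without LGK974 library 1 there were 11, of which 10 were higher, when 1126 of all genes were called higher. The level of the 33 receptors together was 810 and 1106 CPM across the LGK974 libraries, above 708 and 706.1 across the endotoxemic libraries and below 1639 and 1701 across the control libraries.

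*Ppara* had the largest difference of the called receptors. Its level was 61.3 and 131.5 CPM across the LGK974 libraries against 12.9 and 16.0 CPM across the endotoxemic libraries, 6.67-fold higher (log2 2.74 ± 0.35, adjusted p = 0.0050). Both LGK974 libraries lay above both endotoxemic libraries, and the 2 groups did not overlap for 52.5% of all tested genes. The adjusted p was 0.0739 without endotoxemic library 1 and 0.059 without library 2, and the log2 fold change ran from 2.07 to 3.17 over the 6 libraries left out in turn. *Nr2f2* was at 62.2 and 138.4 CPM against 39.5 and 31.1 CPM (log2 1.51 ± 0.34, adjusted p = 0.037). Its call was lost without either control library (adjusted p = 0.081 and 0.0829) and without either endotoxemic library (0.177 and 0.260), and with only the 2 groups compared (0.0828). The log2 fold change was 0.81 without LGK974 library 2 and 1.96 without LGK974 library 1.

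With reassigned symbols, *Nr1h4* was 4.35-fold higher in the LGK974 group (log2 2.12 ± 0.25, adjusted p = 0.0031), where 5.72% of the 12596 tested genes were called, 2.87% higher and 2.85% lower. Its levels were 36.9 and 54.4 CPM against 9.92 and 11.1 CPM. Without endotoxemic library 1 or 2 the adjusted p was 0.0511 and 0.0531, and as deposited the difference was −0.28. *Pparg* with reassigned symbols was at 5.58 and 3.38 CPM against 3.16 and 1.06 CPM and was not called (log2 1.08 ± 0.52, adjusted p = 0.25), with a log2 fold change of 2.03 without endotoxemic library 1 and 0.50 without endotoxemic library 2.

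The partner *Rxra* and the sensors *Nr1i2* and *Nr0b2* were past an unadjusted p of 0.05 and not past the adjusted threshold. *Rxra* was at 113.6 and 118.7 CPM across the LGK974 libraries against 80.8 and 77.4 CPM (log2 0.55 ± 0.18, adjusted p = 0.11), and *Nr1i2* at 18.7 and 21.2 CPM against 12.0 and 12.3 CPM (log2 0.71 ± 0.20, adjusted p = 0.074). For both the LGK974 libraries lay above the endotoxemic libraries. These 2 groups did not overlap for 52.5% of all tested genes and 16 of the 30 tested receptors. *Nr0b2* had 3 and 96 counts across the LGK974 libraries, so that 1 library held nearly all of its signal. Its ratio of summed counts was 32.6 with an exact 95% counting interval of 8.801 to 273.3, an interval that does not cover this difference between libraries (adjusted p = 0.11). Without LGK974 library 1 *Nr0b2* (adjusted p = 1.7e-05), *Nr1i2* (0.0264) and *Rxra* (0.0408) were called higher, and *Nr0b2* was also called without a filter on low counts (7.9e-12). The log2 fold change of *Nr0b2* was 0.99 without LGK974 library 2.

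In the other direction *Nr4a1*, *Nr4a2*, *Nr5a2* and *Ppard* were past an unadjusted p of 0.05. None of the 4 was called by edgeR in the model of all 3 groups with the filter on low counts. *Nr4a1* was called lower by DESeq2 (log2 −1.35, adjusted p = 0.0435) and by edgeR without a filter on low counts (0.0121). *Nr4a1* was at 4.22 and 2.70 CPM across the LGK974 libraries against 9.30 and 8.22 CPM (log2 −1.34 ± 0.35, adjusted p = 0.062). *Nr5a2* was at 23.7 and 29.6 CPM against 37.0 and 42.0 CPM (log2 −0.57 ± 0.20, adjusted p = 0.14). With a library left out, the log2 fold change ran from −1.70 to −1.06 for *Nr4a1* and from −0.75 to −0.43 for *Nr5a2*. *Nr4a2* had 1 and 1 counts against 7 and 6, and *Ppard* had 26 and 24 against 37 and 43 (adjusted p = 0.10 and 0.20). The groups did not overlap for any of these 4 genes, as for 52.5% of all tested genes.

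**Figure D3:**
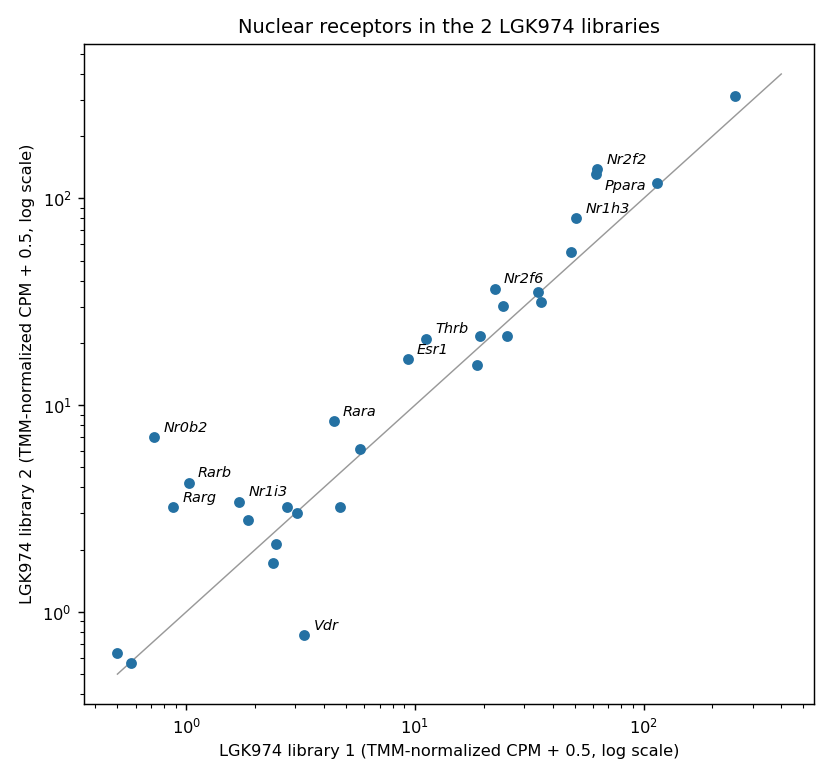
Level of the 30 tested receptors in LGK974 library 1 (x axis) and library 2 (y axis), TMM-normalized CPM plus 0.5 on log scales, with the line of equal levels. Of the 30 receptors, 21 lie above the line, with *Ppara*, *Nr2f2*, *Thrb* and *Nr0b2* among the named points, and *Vdr* lies far below it.

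The 2 LGK974 libraries differed from each other in the receptors about as much as in all tested genes. The median absolute log2 ratio between them was 0.41 over the receptors and 0.38 over all genes. Of the 30 tested receptors 70% were higher in library 2 than in library 1, against 49.8% of all tested genes, and the median log2 ratio of library 2 to library 1 was 0.27 over the receptors and 0 over all genes. In the control group the shares were 60% and 53.6%, and in the endotoxemic group 40% and 49.8%. *Thrb* was at 10.7 and 20.5 CPM in LGK974 libraries 1 and 2, *Esr1* at 8.82 and 16.2 CPM and *Rara* at 3.92 and 7.84 CPM. For each of these 3 genes, library 1 lay at the level of the endotoxemic libraries and library 2 between that level and the control libraries. *Nr2f6* (21.9 and 36.2 CPM), *Nr1h3* (50.2 and 79.7 CPM) and *Nr1i3* (1.21 and 2.91 CPM) had the same order. *Nr4a1* (4.22 and 2.70 CPM) and *Vdr* (2.79 and 0.27 CPM) were among those higher in library 1.

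The third comparison set the LGK974 group against the control group, whose libraries also served in the first comparison. In the LGK974 group 17 of the 30 tested receptors were lower and 1 was higher, beside 32.3% called, 17.1% lower and 15.2% higher, among all tested genes, and the median log2 fold change was −1.10. The lower calls numbered 11 without control library 1 and 8 without control library 2, when 9.27% and 9.46% of all tested genes were lower, and 7 of the 18 calls were kept whichever library was left out (*Nr1i2*, *Nr1i3*, *Nr2f6*, *Nr5a2*, *Nr6a1*, *Ppara* and *Rxrg*). *Nr1i3* had 16 and 43 counts across the LGK974 libraries against 503 and 832 across the control libraries (log2 −4.60 ± 0.38, adjusted p = 4.9e-05), and its log2 fold change was −5.35 without LGK974 library 2. *Ppara* was 3.38-fold lower (log2 −1.76 ± 0.33, adjusted p = 0.0037), with a log2 fold change of −1.29 without LGK974 library 1 and −2.39 without LGK974 library 2. *Nr1i2* was 3.01-fold lower (adjusted p = 3.9e-04), *Rxrg* 6.03-fold lower with 25 and 18 counts against 108 and 134 (adjusted p = 0.0054), and *Nr2f6* 2.40-fold lower (adjusted p = 0.0049).

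*Nr5a2* and *Nr6a1* were lower by 1.42 ± 0.20 and 2.01 ± 0.33 on the log2 scale in the LGK974 group (adjusted p = 8.7e-04 and 0.0019). *Nr6a1* had 34 and 37 counts across the LGK974 libraries against 111 and 157 across the control libraries. For both genes the difference from the control group was larger than that of the endotoxemic group, which was −0.85 and −1.40, and the direct comparison of the LGK974 and endotoxemic groups called neither. *Nr4a1* (log2 −1.16 ± 0.35, adjusted p = 0.033) and *Nr4a2* were lower than in the control group. *Nr4a2* had 1 and 1 counts across the LGK974 libraries against 15 and 38, a ratio of summed counts of 28.5 with an exact 95% counting interval of 7.502 to 241.2 (adjusted p = 0.0050). The call of *Nr4a1* was lost without any single library except LGK974 library 1, with adjusted p from 0.0638 to 0.176, and that of *Nr4a2* was lost without control library 2 (adjusted p = 0.059).

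The other 8 receptors called lower against the control group each lost the call when a single library was left out. *Nr0b2* (log2 −3.43 ± 0.85, adjusted p = 0.014) lost it without either control library (adjusted p = 0.0525 and 0.068) and was not called by DESeq2 (adjusted p = 0.14). With 3 and 96 counts across the LGK974 libraries, its log2 fold change was −2.49 without LGK974 library 1 and −7.26 without LGK974 library 2. *Rxra* (log2 −0.86 ± 0.18, adjusted p = 0.0064) lost it without control library 1 (0.0781). *Nr3c1* (−1.15 ± 0.24, adjusted p = 0.0065), *Thra* (−1.85 ± 0.39, 0.0063) and *Thrb* (−1.35 ± 0.30, 0.0088) lost it without control library 2 (adjusted p = 0.072, 0.0681 and 0.0601). *Nr3c1* was at 34.97 and 31.2 CPM across the LGK974 libraries and *Thra* at 2.26 and 2.70 CPM, below both control libraries. The LGK974 and control libraries did not overlap for 67.3% of all tested genes and 22 of the 30 tested receptors. *Nr1h3* (−0.77 ± 0.24, adjusted p = 0.036), *Esr1* (−1.04 ± 0.31, 0.029) and *Esrrg*, with 0 and 2 counts (adjusted p = 0.013), lost it in 5, 4 and 3 of the 6 cases, with adjusted p up to 0.198, 0.121 and 0.0887. With only the 2 groups compared 14 receptors were lower, beside 15.1% of all tested genes, and *Nr1h3* (adjusted p = 0.0738), *Nr4a1* (0.0779) and *Esr1* (0.0519) were not called.

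*Vdr* was the 1 receptor called higher, and its signal came mostly from LGK974 library 1. It had 37 and 4 counts across the LGK974 libraries against 1 and 2 across the control libraries (log2 3.62 ± 1.22, adjusted p = 0.049). The ratio of summed counts was 12.72 with an exact 95% counting interval of 4.059 to 64.22, which does not cover the difference between the LGK974 libraries. Its log2 fold change ran from 1.19, without LGK974 library 1, to 4.51 when a library was left out. The call was lost without any single library except LGK974 library 2, with adjusted p from 0.0822 to 0.609. *Nr2f2* was not called and its direction turned with the library left out, since its log2 fold change was −0.29 with all libraries, 0.20 without LGK974 library 1 and −0.96 without LGK974 library 2. *Hnf4a* was at 250.5 and 313.9 CPM across the LGK974 libraries, which spans the control libraries. *Nr1h2* (24.8 and 21.2 CPM), *Nr2c2* (34.1 and 34.7 CPM), *Rxrb* (18.1 and 15.1 CPM) and *Esrra* (47.9 and 54.5 CPM) were not called in any of the 3 comparisons. *Nr2c1* (5.28 and 5.61 CPM), *Rarb* (7 and 55 counts), *Rarg* (5 and 40 counts) and *Nr2f1* (18 and 34 counts) were also not called against the control group. *Nr3c2* had 1 and 3 counts, *Nr4a3* 1 and 7 counts and *Hnf4g* 1 and 0 counts across the LGK974 libraries. With reassigned symbols *Nr1h4* (log2 −0.48 ± 0.23, adjusted p = 0.14) and *Pparg* (−1.33 ± 0.47, adjusted p = 0.058) were not called, where 32.8% of the 12596 tested genes were, 17.1% lower and 15.6% higher, and *Pparg* as deposited was higher by 1.24 (adjusted p = 0.017). *Nr1h4* was called lower without LGK974 library 2 (−0.78, adjusted p = 0.011), and *Pparg* without endotoxemic library 1 (0.0441) or 2 (0.0400) and without LGK974 library 1 (0.0182).

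The coregulators that nuclear receptors recruit were called at shares near those of all tested genes. After LPS 5 of the 24 tested coregulators were lower and 3 were higher, beside 22.6% lower and 19.5% higher among all tested genes, and their median was −0.10. The 3 largest falls were those of *Ppargc1b* (log2 −4.11, adjusted p = 2.2e-05), *Ppargc1a* (−2.84, adjusted p = 1.7e-04) and *Lpin1* (−2.25, adjusted p = 6.8e-05), coactivators of PPARα and the estrogen-related receptors. *Ppargc1b* had 347 and 455 counts across the control libraries and 16 and 17 across the endotoxemic libraries. The rises were those of *Pprc1* (2.03), *Ncoa7* (1.60) and *Ep300* (0.70). In the LGK974 group *Lpin1* (1.05, adjusted p = 0.025) and *Kat2b* (0.99, adjusted p = 0.031) were higher than in the endotoxemic group, and 0 of the 24 were lower, beside 2.84% higher and 2.74% lower among all tested genes. Against the control group 6 were lower and 3 were higher, beside 17.1% and 15.2% of all tested genes, with *Pprc1* (1.49), *Tbl1xr1* (1.15) and *Ncoa2* (1.02) rising.

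The genes that these receptors are known to regulate were described by fixed lists, which were chosen with earlier results of these data known. Their shares are to be read beside the 22.6% lower and 19.5% higher among all tested genes. Of the bile acid genes, 7 of 10 tested were lower and 0 were higher in the endotoxemic group (median −1.97). *Cyp7a1*, the rate-limiting enzyme of bile acid synthesis, had 646 and 1048 counts across the control libraries and 5 and 4 across the endotoxemic libraries (log2 −7.01, adjusted p = 9.1e-06). *Cyp8b1*, which sets the share of cholic acid, fell by 5.64, and *Slc10a1*, the bile acid uptake carrier, fell by 4.11. Of the xenobiotic genes 9 of 11 were lower and 0 were higher (median −1.60), with the largest called falls in *Cyp3a25* (−2.68), *Cyp2b9* (−2.67) and *Gstm3* (−1.90). Of the fatty acid genes 12 of 17 were lower and 2 were higher (median −1.46). *Acot1* (−3.95), an acyl-CoA thioesterase, and *Cyp4a14* (−2.45), a fatty acid hydroxylase, were among the largest falls, whereas *Cyp4a12a* (1.56) and the lipid droplet gene *Plin2* (1.06) rose.

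The lists of sterol, retinoid and thyroid genes also held more lower than higher genes, where 22.6% of all tested genes were lower and 19.5% were higher. Of the sterol genes 6 of 9 were lower and 1 was higher, with *Abcg8* (−3.51) and *Abcg5* (−3.44), the subunits of the biliary sterol exporter, and *Srebf1* (−2.71) falling most and *Abca1* rising (2.11). Of the retinoid genes 5 of 6 were lower, led by *Cyp26a1* (−6.06), *Dhrs3* (−2.97) and *Lrat* (−2.93), and *Tgm2* rose (3.28). Of the thyroid genes 3 of 5 were lower, *Dio1* (−3.46), *Gpd2* (−1.59) and *Me1* (−1.25), and *Serpina7* rose (1.84). The glucocorticoid genes were called at shares near those of all tested genes, with 3 of 10 lower (*Pck1* −4.74, *Tsc22d3* −2.69 and *Klf9* −1.75) and 2 higher (*Mt2* 3.16 and *Fkbp5* 1.77).

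**Figure D4:**
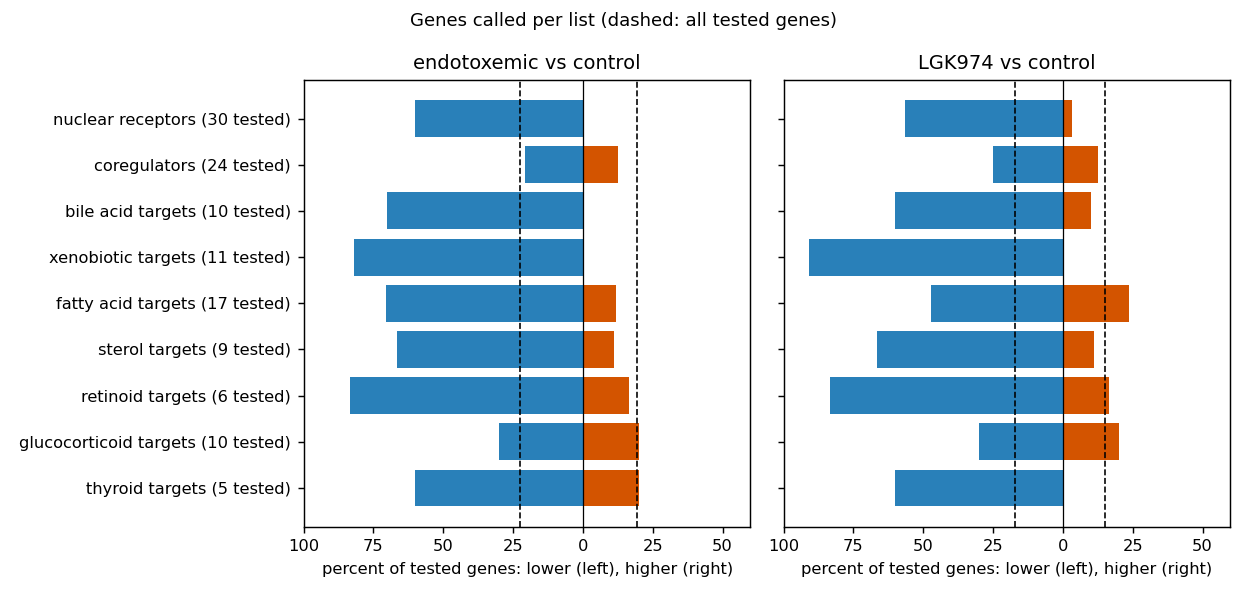
Share of the tested genes of each list that were called lower (left, blue) or higher (right, orange) in the endotoxemic group (left panel) and the LGK974 group (right panel) against the control group, in percent. Dashed lines mark the shares among all tested genes. The receptors were 60% lower in the left panel, and among the target lists the xenobiotic and retinoid genes had the largest lower shares in both panels.

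In the LGK974 group, the fatty acid list held the most genes called higher than in the endotoxemic group, 6 of 17, and 0 were lower (median 0.46), beside 2.84% higher and 2.74% lower among all tested genes. Among them were *Cyp4a12a* (5.39, adjusted p = 6.1e-04), *Creb3l3* (1.04, adjusted p = 0.017), *Angptl4* (1.02), *Cpt1a* (0.98) and *Cpt2* (0.89). *Cpt1a* and *Cpt2* encode the enzymes that carry fatty acids into mitochondria. *Cyp4a12a* is known to be male-biased in mouse liver, as *Cyp2b9* is female-biased, and *Cyp2b9* was lower (−6.62, adjusted p = 1.2e-04). Of the other lists, the glucocorticoid genes *Pck1* (2.46, adjusted p = 0.0043) and *Tsc22d3* (1.57, adjusted p = 0.011) were higher. *Abcb11*, the bile salt export pump (−1.22, adjusted p = 0.020), *Tgm2* (−0.99, adjusted p = 0.025) and *Serpina7* (−2.38, adjusted p = 0.0012) were lower. Of the sterol genes 0 of 9 were called in either direction.

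Against the control group 17.1% of all tested genes were lower and 15.2% were higher. The LGK974 group had 6 of 10 bile acid genes lower and 1 higher (*Cyp7b1*, 2.01), 10 of 11 xenobiotic genes lower and 0 higher, and 8 of 17 fatty acid genes lower and 4 higher. *Cyp7a1* had 0 and 2 counts across the LGK974 libraries. The 3 largest rises of the fatty acid genes were *Cyp4a12a* (6.95), *Pdk4* (3.09) and *Plin2* (1.68). Of the sterol genes 6 of 9 were lower and 1 was higher, of the retinoid genes 5 of 6 and 1, and of the thyroid genes 3 of 5 and 0. Of the glucocorticoid genes 3 of 10 were lower and 2 were higher, which is 30% and 20%.

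Markers of the liver's cell types differed between the groups too, and in bulk RNA fewer cells of a type and less RNA per cell cannot be told apart. Of the hepatocyte markers 5 of 6 tested were lower in the endotoxemic group, with a summed level of 113300 and 78720 CPM across the control libraries, 51330 and 33580 CPM across the endotoxemic libraries and 39940 and 36990 CPM across the LGK974 libraries. *Alb* had from 210581 to 914224 counts in the 6 libraries, so the labelled tissue carried its defining marker throughout. Of the Kupffer cell markers 3 of 5 were lower and 1 was higher, of the sinusoidal endothelial markers 4 of 6 and 1, of the stellate cell markers 3 of 5 and 1, and of the cholangiocyte markers 1 of 5 and 1, beside 22.6% lower and 19.5% higher among all tested genes. Their summed levels were 132.2 and 127 against 154.6 and 126.3 CPM for Kupffer cells, 252.2 and 247.5 against 394.7 and 375.9 CPM for endothelial cells, 412.4 and 425.3 against 567.9 and 525.4 CPM for stellate cells, and 30 and 29.4 against 83.6 and 88.5 CPM for cholangiocytes. In each of these sums 1 gene that was higher held most of the endotoxemic signal while the other markers were lower or not called. These genes, named after their values were seen, were *Marco* (log2 3.71), *Lyve1* (3.04), *Dcn* (0.60) and *Sox9* (3.12), whereas *Vsig4* (−2.76), *Kdr* (−5.36), *Clec4g* (−3.48), *Colec11* (−2.32) and *Krt19* were lower. *Krt19* had 19 and 30 counts across the control libraries and 0 and 1 across the endotoxemic libraries. Its ratio of summed counts was 34.71 with an exact 95% counting interval of 5.945 to 1399. Of the neutrophil markers the 1 tested gene was higher, and of the T and NK cell markers 1 of 3 was higher and 0 were lower. Between the LGK974 and endotoxemic groups *Clec4f* of the Kupffer cell markers (−1.30, adjusted p = 0.018) and *Clec4g* of the endothelial markers (−2.20, adjusted p = 0.016) were lower and no other marker was called, beside 2.84% higher and 2.74% lower among all tested genes. Against the control group the LGK974 group had 3 of 6 hepatocyte, 3 of 5 Kupffer cell, 5 of 6 endothelial and 3 of 5 stellate cell markers lower, beside 17.1% of all tested genes. The markers called higher were *Marco* (3.59), *Lyve1* (3.40), *Sox9* (2.45) and the neutrophil gene *Retnlg* (2.64), beside 15.2% of all tested genes. Its summed levels were 97.8 and 126.3 CPM for Kupffer cells, 430.4 and 539.7 CPM for endothelial cells, 434.9 and 522.9 CPM for stellate cells and 38.4 and 92.2 CPM for cholangiocytes. The part of these differences in the receptor results was not tested.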

How the data were processed

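Per the labels, libraries were made from 500 ng of total liver RNA with a Lexogen kit named Quant-Seq. Its catalogue number may belong to another kit, so whether the counts are tags of transcript ends or reads over whole transcripts is not settled here. The authors deposited whole-number counts per gene symbol without normalization. The submitters' processing notes name Bowtie2, edgeR and mm10. The counting program and its use of strand are not given in the sources used here. The analysis used edgeR 4.0.16 in R 4.3.3. Rows out of genomic order, meaning a RefSeq position on GRCm38 over 2 Mb away from the ordered rows beside them, were left out of the model. Genes were filtered with filterByExpr by group (minimum count 10), TMM normalization was applied, and the 6 distinct libraries entered 1 quasi-likelihood model with 3 groups. Comparisons were tested by the quasi-likelihood F test, with p-values adjusted over all tested genes after Benjamini and Hochberg and a threshold of 0.05. Reassigning symbols moved the endotoxemic and LGK974 counts, but not the control counts, of each matched row to the gene annotated where the row stands. A group with 1 to 3 counts in all was compared by the ratio of summed counts with an exact 95% interval. The smallest detectable signal was set at 3 counts, 0.197 to 0.328 CPM. Intervals and this floor cover counting error only, and the reads carry no stated molecular identifiers.

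Every receptor is accounted for, with every library's value for those past the threshold or out of order. Of the other lists, a gene was named if it was among the 3 largest called rises or falls of its list in a comparison, although some genes named by this rule are not reported here. The members and lists were chosen with earlier results of these data known. Alternatives were RLE size factors, DESeq2 1.42.0, no filter, at least 10 counts in every library, the replicate number as a block, only the 2 groups compared, each library left out, all 4 endotoxemic libraries, and the symbols as deposited.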

Additional observations from a re-analysis of the deposited data

How the results depend on the processing

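With RLE size factors the values recomputed, for 30, 9 and 21 of the 30 tested receptors in the 3 comparisons, kept their direction and their side of the threshold. In the endotoxemic against the control group the calls ran from 10 to 20 with a library left out (lower 10 to 19, higher 0 to 1), and *Vdr* made the count of higher receptors 1 with DESeq2, without a filter and with only the 2 groups compared. With all 4 endotoxemic libraries 2 were higher. In the LGK974 against the endotoxemic group the calls ran from 0 to 11 (higher 0 to 10, lower 0 to 1) with a library left out, against 2. There were 4 without a filter (1 lower), 1 with only the 2 groups compared, and 11 with all 4 endotoxemic libraries (6 higher, 5 lower). DESeq2 called 1 lower. In the LGK974 against the control group the calls ran from 8 to 20 (lower 8 to 19, higher 0 to 1), and the count of higher receptors was 0 with only the 2 groups compared. It was also 0 with at least 10 counts in every library. In both of these settings the filter on low counts removed *Vdr*, so it was not tested there. The other causes were not tested.

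The replicate numbers are shared by the groups only as numbers, with correlations of the deviations of −0.014 to 0.185, over 2 pairs. With the replicate number as a block 18, 1 and 17 receptors were called in the 3 comparisons, and the block ended the calls of *Nr2f2* (1.44, adjusted p = 0.052) and *Vdr* (3.24, adjusted p = 0.088; 0 higher against the control group). With the symbols as deposited *Pparg* reversed in all 3 comparisons (1.56, −0.32 and 1.24), and *Nr1h4* reversed between the LGK974 and endotoxemic groups (−0.28). The fits of the reassigned symbols without each library, and with the block, were chosen after seeing the data, and the block there gave *Pparg* −1.36 against the control group (adjusted p = 0.024). With a library left out, *Nr1h2* ran from 0 to 0.56 and *Esrra* from −0.53 to 0.23 in the endotoxemic against the control group, and *Nr2f2* from −0.96 to 0.20 in the LGK974 against the control group. Where an arm was left with 1 library, it was assumed to vary like the other groups. The 3 receptors with the fewest counts (*Nr3c2*, *Nr4a3* and *Hnf4g*) could not be tested at this depth.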
